A study of Homo sapiens with 4 samples.

Results

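Forkhead transcription factors other than FOXK1 and FOXK2 were examined in OVCAR5 cells carrying a control short hairpin RNA (shCtrl) or a hairpin directed against FOXK2 (shFOXK2). The genes were chosen by symbol: FOXO1, FOXO3, FOXO4, FOXP1, FOXP4, FOXJ3, FOXN2, FOXN3, FOXC1 and FOXQ1, which are 10 of the 49 forkhead genes among 56655 symbols in the count tables. OVCAR5 is an established human ovarian cancer line, given in the labels as high grade serous and of ascites origin, at passage 4 to 6. Both groups were transduced with lentivirus and selected with puromycin, so the controls also carry the vector and the drug, and 2 RNA-seq libraries were deposited for each group. The shFOXK2 group rests on 1 hairpin sequence in 1 cell line, and the labels do not say whether the libraries of a group came from separate cultures, so p-values measure only the spread between these libraries.

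Forkhead proteins bind DNA through a winged-helix domain, and many of them recognize variants of a core written TGTTTAC. FOXK proteins can occupy the same class of sites as these factors. FOXO factors act downstream of insulin and growth factor signaling: AKT phosphorylation holds them in the cytoplasm, and, when this is relieved, they activate genes for cell cycle arrest, apoptosis, antioxidant defense and autophagy. FOXP factors are largely repressors that dimerize and recruit corepressor complexes, whereas FOXC1 and FOXQ1 are best known from development and from epithelial to mesenchymal change in carcinomas.

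The libraries held 14284005 to 21950873 counts, and 3 counts corresponded to 0.134 to 0.211 CPM, the library-size-scaled count (TMM factors) used here. The targeted gene FOXK2 was at 80.5 and 93.4 CPM in shCtrl and at 76.3 and 59.5 CPM in shFOXK2. Both shFOXK2 libraries therefore lay below both controls, but the difference did not pass the test (log2 fold change -0.36, SE 0.25, adjusted p = 0.257), and the value was -0.0328 with an offset for the A content of transcripts and -0.0654 with one for GC content. Whether these libraries carry an effective knockdown was therefore not settled by the counts. The paper reports lower FOXK2 mRNA by qRT-PCR and lower FOXK2 protein in shFOXK2 OVCAR5 cells, measured apart from these libraries. Its paralog FOXK1 fell from 205 to 92.0 CPM (-1.16, SE 0.23, adjusted p = 0.00111). The direction of each change below is that of the libraries labelled shFOXK2 against those labelled shCtrl. Epithelial keratins were abundant in every library, and the summed level of 11 epithelial markers was 4364 and 5787 CPM in shCtrl and 4248 and 5410 CPM in shFOXK2. Of these 11, WT1 did not exceed 3 counts in any library. Lower in shFOXK2 were 5 of the 10 tested: MUC16 (-5.76), CDH1 (-4.02), MUC1 (-2.76), CLDN4 (-1.02) and PAX8 (-0.88). The other 5 did not pass. Markers of other cell types summed to 59.0 to 113 CPM. COL1A2, DCN, PTPRC and CD3E did not exceed 3 counts in any library. Of the 7 markers of other cell types that were tested, 5 fell, namely PDGFRB (-4.16), PECAM1 (-2.45), CD14 (-1.14), the mesothelial UPK3B (-1.45) and CDH5, which had 0 counts in both shFOXK2 libraries, whereas CALB2, also mesothelial, rose (3.82). The part of these markers in the results below was not tested. As these are bulk libraries, fewer cells of a type and less RNA per cell cannot be told apart.

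All 10 members passed the expression filter, with 16 to 1508 counts per library. By edgeR's quasi-likelihood test with Benjamini-Hochberg adjustment across 16417 genes, 4 of the 10 members changed at an adjusted p under 0.05: FOXO4, FOXC1 and FOXQ1 fell and FOXN2 rose. The share of members called, 40%, was read against 48.4% of all tested genes (22.7% lower and 25.7% higher), and so was near the background. The 2 libraries of one group lay apart from those of the other for the same 4 members, against 75.4% of all tested genes. The median log2 fold change was -0.07 over the members and 0.04 over all tested genes. A called log2 fold change under -3 was found for 1.94% of tested genes. The FOXO4 estimate (-3.06) lay just under that cut, and its interval (-3.86 to -2.25) spanned it. With the offset for A content the estimate was -2.70, and with that for GC content -2.73, both above the cut. How unusual the size of the FOXO4 change was is therefore not settled by that share.

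**Figure D1:**
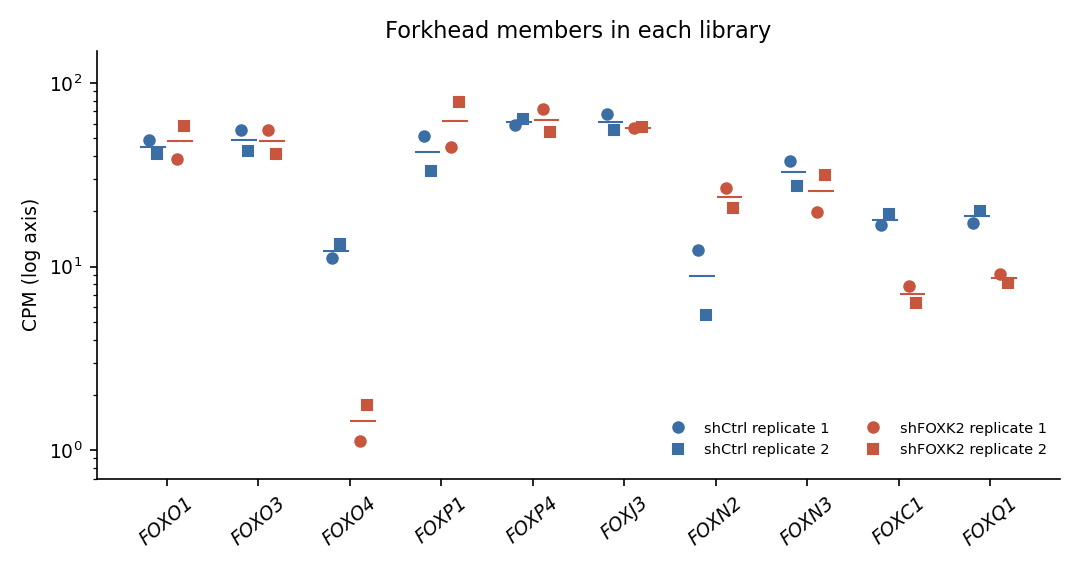
CPM of the 10 forkhead members (logarithmic axis) in the 2 shCtrl libraries (blue) and the 2 shFOXK2 libraries (red); circles are replicate 1, squares replicate 2, and short lines group means. FOXO4, FOXC1 and FOXQ1 lay lower and FOXN2 higher in both shFOXK2 libraries, and the groups overlapped for the other 6 genes.

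FOXO4, the FOXO factor encoded on the X chromosome (hg38 chrX:71095851-71103532, plus strand), showed the largest change among the members. It had 247 and 214 counts in shCtrl and 16 and 32 counts in shFOXK2, or 11.1 and 13.3 CPM against 1.12 and 1.76 CPM. Every shFOXK2 library was below every control, by 2.65 to 3.57 log2 units across the 4 pairs of libraries. The mean fell from 12.2 ± 1.60 to 1.44 ± 0.448 CPM (SD, n = 2 libraries per group), 11.8% of the control level. The fitted log2 fold change was -3.06 (SE 0.37, 95% interval -3.86 to -2.25, edgeR adjusted p = 3.74e-05), an 8.32-fold lower level. No other gene annotated in GENCODE 44 shares exon bases with FOXO4. The release used for the deposited counts is not given, so overlap under that release was not checked. The 40 tested genes nearest to FOXO4 on the chromosome had a median of 0.09, with 10 called higher and 11 lower. Among all tested genes 25.7% were called higher and 22.7% lower.

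The region upstream of FOXO4 is printed here because this gene fell the most of the members. These are the 250 bases before the RefSeq start (GRCh38.p14, chrX:71095601-71095850, plus strand), with each CpG in capitals.
FOXO4: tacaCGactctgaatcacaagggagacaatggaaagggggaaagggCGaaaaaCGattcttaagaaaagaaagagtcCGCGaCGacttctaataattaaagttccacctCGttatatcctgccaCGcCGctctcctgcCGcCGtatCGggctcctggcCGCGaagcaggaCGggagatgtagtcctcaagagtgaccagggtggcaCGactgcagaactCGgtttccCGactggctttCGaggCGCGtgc
This stretch holds 21 CpG and is 54.4% GC. RefSeq windows from 250 bases before to 50 bases after a start were searched for TGTTTAC on either strand. It was found in 3.42% of all 35116 windows and in 2.62% of the 15749 windows of tested genes. Such windows were given for 9 of the members, 19 in all, and 2 windows held the motif: the single FOXO4 window and 1 of the 6 FOXP1 windows. The matches are shown with the motif, or its reverse complement, in capitals.
FOXO4: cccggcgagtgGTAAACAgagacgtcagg
FOXP1: aactatgttatTGTTTACtttaccataca
The FOXO4 stretch (chrX:71095863-71095891, plus strand) holds the reverse complement, 24 bases into the transcript, within the noncoding part of the first exon of the canonical transcript. The FOXP1 stretch (chr3:71245253-71245281, minus strand) lies 193 bases before one of several starts. It is inside the span of 27 of 71 annotated FOXP1 transcripts but in no exon. These matches describe the letters only, and binding was not measured in these libraries. The paper reports FOXK2 binding sites in OVCAR5 cells from chromatin immunoprecipitation and sequencing, and those sites were not examined here.

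FOXO1 and FOXO3, the FOXO genes with the highest counts, did not pass the test. FOXO1 stood at 49.0 and 41.0 CPM in the controls, against 38.4 and 58.6 CPM with the hairpin, so that the control values fell between those of shFOXK2. Its log2 fold change was 0.11 (SE 0.28, 95% interval -0.49 to 0.70, adjusted p = 0.775). FOXO3 was at 55.5 and 42.9 CPM in shCtrl and at 55.3 and 40.9 CPM in shFOXK2, with replicate 1 high and replicate 2 low in both groups (-0.03, SE 0.27, interval -0.61 to 0.54, adjusted p = 0.931). Both intervals lie inside a 2-fold change in either direction. A long noncoding RNA on the same strand shares 22.7% of FOXO1 exon bases, and FOXO3B, a copy of FOXO3 elsewhere in the genome, held 10 to 29 counts per library. How reads shared with these were assigned is not given in the sources used here, so the FOXO1 and FOXO3 counts carry that uncertainty.

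Compared per kilobase of canonical transcript, the control cells held FOXO1 at 8.49 and 7.10 CPM per kb, FOXO3 at 7.61 and 5.87, and FOXO4 at 3.04 and 3.66. FOXO6, a forkhead gene outside the 10 members, was the most abundant of the 4 FOXO transcripts on this scale, at 12.97 and 14.2 CPM per kb in shCtrl and 2.80 and 2.86 with the hairpin. FOXO6 thus fell as well (log2 fold change -2.26, SE 0.31, adjusted p = 7.52e-05). The summed FOXO level went from 31.5 ± 0.869 to 18.2 ± 1.23 CPM per kb (SD, n = 2), 57.8% of the control. FOXO4 made up 9.46% and 11.8% of that sum in shCtrl and 1.78% and 2.53% in shFOXK2, and FOXO6 went from 40.4% and 46.1% to 16.2% and 14.99%. With the hairpin the remaining FOXO transcripts were therefore mostly FOXO1 (38.3% and 53.1%) and FOXO3 (43.7% and 29.4%), whose own levels overlapped between the groups. These levels depend on the length used: over the union of annotated exons FOXO6 was at 7.69 and 8.44 CPM per kb in shCtrl, below FOXO1 in replicate 1 (8.23) and above it in replicate 2 (6.89), and the summed level in shFOXK2 was 65.2% of the control.

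**Figure D2:**
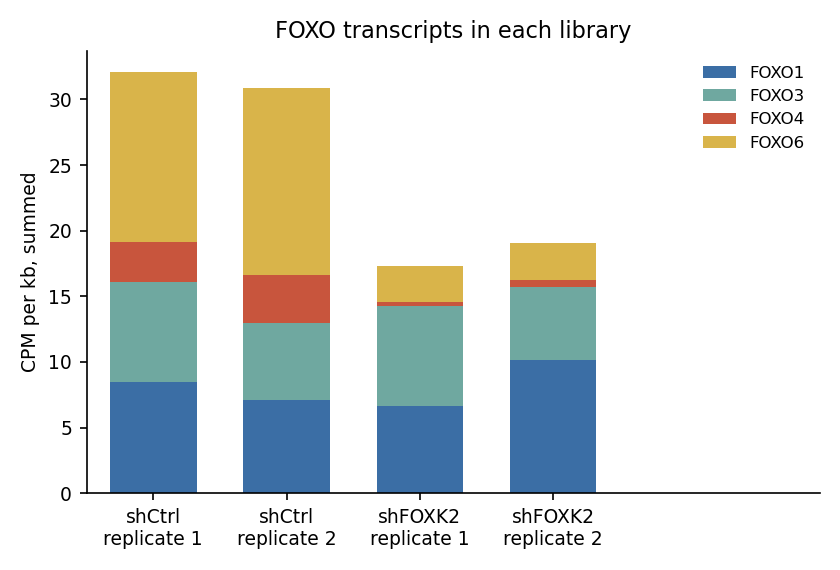
Summed FOXO transcript level in each library, in CPM per kb of canonical transcript, stacked by gene. The total was 32.1 and 30.9 in shCtrl and 17.3 and 19.1 in shFOXK2; the FOXO4 and FOXO6 segments are smaller in both shFOXK2 libraries and those of FOXO1 and FOXO3 overlap between groups.

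FOXP1 and FOXP4 encode repressors that can pair with each other. FOXP1 was at 51.2 and 33.2 CPM in shCtrl and at 44.9 and 78.7 CPM in shFOXK2. The high value was that of shFOXK2 replicate 2, and the groups overlapped. Its log2 fold change was 0.55 (SE 0.31, interval -0.12 to 1.22, adjusted p = 0.162). Without shFOXK2 replicate 1 it was 0.90 (adjusted p = 0.0292) and without shCtrl replicate 1 it was 0.85 (adjusted p = 0.038), whereas without shFOXK2 replicate 2 it was 0.05 (adjusted p = 0.929), so whether FOXP1 passed depended on single libraries. Another annotated gene on the same strand shares 7.7% of FOXP1 exon bases. FOXP4 was at 59.3 and 63.5 CPM in shCtrl and at 72.3 and 54.3 CPM in shFOXK2, on both sides of the controls (0.04, SE 0.25, interval -0.50 to 0.59, adjusted p = 0.904). FOXP2, which encodes another member of the subfamily, stayed under 3 CPM in every library and did not pass (0.58, adjusted p = 0.367).

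The corepressor machinery linked to FOXP factors was represented by 15 genes for CTBP proteins and subunits of the NuRD deacetylase and remodeling complex. All were tested: 3 rose, 2 fell and 10 did not pass, with a median log2 fold change of 0.03 against 0.04 over all genes and 33.3% called against 48.4%. With the A-content offset 6 rose and 0 fell. The NuRD subunits MTA1 (1.05, adjusted p = 0.00438) and MBD3 (0.90, adjusted p = 0.0118) and the histone deacetylase HDAC2 (1.04, adjusted p = 0.00425) were higher. MTA3 (-0.88, adjusted p = 0.0162) and HDAC1 (-0.58, adjusted p = 0.0488) were lower. The paralogs HDAC1 and HDAC2, and MTA1 and MTA3, thus moved in opposite directions, though with the GC offset HDAC1 (-0.31), HDAC2 (0.30) and MTA3 (-0.54) no longer passed. HDAC1 was just inside the threshold, and lost its call in 8 of the 13 alternatives (adjusted p = 0.113 with the replicate block) and without shCtrl replicate 2 or either shFOXK2 library. Without shFOXK2 replicate 1, 1 of the 15 genes passed.

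FOXJ3, FOXN2 and FOXN3 are widely expressed regulators, FOXN3 being known as a checkpoint suppressor. FOXJ3 had the highest level per transcript length among the members, and its shFOXK2 values were nearly equal, at 56.6 and 57.4 CPM against 67.6 and 55.7 CPM in shCtrl (-0.11, SE 0.25, interval -0.64 to 0.42, adjusted p = 0.731). FOXN3 was at 37.7 and 27.7 CPM in shCtrl and 19.8 and 31.6 CPM in shFOXK2, where replicate 2 lay between the controls (-0.35, SE 0.30, interval -0.99 to 0.29, adjusted p = 0.358). Antisense noncoding RNAs share 7.5% and 2.1% of FOXN3 exon bases, and without a stated strand setting their reads cannot be told apart from those of FOXN3.

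FOXN2 was the member that rose. It had 276 and 87 counts in shCtrl and 380 in each shFOXK2 library, or 12.4 and 5.42 CPM against 26.7 and 20.9 CPM. Both shFOXK2 libraries were above both controls, but the controls themselves differed by more than the shFOXK2 libraries did. The mean rose from 8.90 ± 4.92 to 23.8 ± 4.13 CPM (SD, n = 2), a log2 fold change of 1.41 (SE 0.36, interval 0.62 to 2.19, adjusted p = 0.00622). The estimate was 2.09 without shCtrl replicate 1 and 0.94 without shCtrl replicate 2, and it passed in both cases. The FOXN2 transcript is rich in A (31.6%) and poor in GC (34.4%), which places it in the highest of 10 equal groups of genes by A content, whose median log2 fold change was itself 1.11. With an offset for A content the FOXN2 value was 0.73 (adjusted p = 0.048), and with an offset for GC content it was 0.37 and no longer passed (adjusted p = 0.257).

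FOXC1 and FOXQ1 are single-exon genes 295 kb apart near the start of chromosome 6, and they fell by similar amounts. FOXC1 (hg38 chr6:1609915-1613897) was at 16.8 and 19.3 CPM in shCtrl and at 7.80 and 6.32 CPM in shFOXK2. Its mean went from 18.0 ± 1.80 to 7.06 ± 1.05 CPM (SD, n = 2), 39.1% of the control (log2 fold change -1.35, SE 0.30, interval -2.0 to -0.71, adjusted p = 0.00232). FOXQ1 (hg38 chr6:1312098-1314758) was at 17.3 and 20.2 CPM in shCtrl and at 9.14 and 8.13 CPM in shFOXK2. Its mean went from 18.8 ± 2.01 to 8.63 ± 0.713 CPM, 46.0% of the control (-1.12, SE 0.29, interval -1.74 to -0.49, adjusted p = 0.00621). For both genes the 2 groups were well separated, with every pair of libraries lower by 0.925 to 1.61 log2 units.

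Other genes in that stretch of the chromosome were also lower. The 24 tested neighbors of FOXC1, up to 20 on each side, had a median log2 fold change of -0.78, with 2 called higher and 11 lower, and the 22 neighbors of FOXQ1 had a median of -0.88, with 1 called higher and 11 lower. These 2 sets of neighbors overlap, since the genes are close, and each set includes the other member, itself called lower. Among all tested genes 25.7% were called higher and 22.7% lower. DUSP22, a phosphatase gene nearer to the chromosome end, fell (-0.93, adjusted p = 0.0208), as did the exocyst gene EXOC2 (-0.98, adjusted p = 0.0102). FOXF2, the forkhead gene between FOXQ1 and FOXC1, had -1.05 and did not pass (adjusted p = 0.0526), and GMDS, which follows FOXC1, did not differ detectably (0.08, adjusted p = 0.849). DUSP22, EXOC2 and GMDS were singled out after their values were seen. Whether the position of FOXC1 and FOXQ1 had a part in their change was not tested. Both genes still passed with an offset for A content (-1.02 and -0.78) and with one for GC content (-1.06 and -0.89).

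The upstream sequences of FOXC1 and FOXQ1 are shown because both genes fell. They are the 250 bases before each RefSeq start on the plus strand (GRCh38.p14), with CpG in capitals.
FOXC1: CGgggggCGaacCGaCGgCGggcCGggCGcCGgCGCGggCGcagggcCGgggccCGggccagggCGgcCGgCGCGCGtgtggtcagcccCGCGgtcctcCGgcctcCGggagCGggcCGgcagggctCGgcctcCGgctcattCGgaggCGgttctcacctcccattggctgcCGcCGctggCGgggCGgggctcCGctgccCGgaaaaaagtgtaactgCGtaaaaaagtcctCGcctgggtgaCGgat
FOXQ1: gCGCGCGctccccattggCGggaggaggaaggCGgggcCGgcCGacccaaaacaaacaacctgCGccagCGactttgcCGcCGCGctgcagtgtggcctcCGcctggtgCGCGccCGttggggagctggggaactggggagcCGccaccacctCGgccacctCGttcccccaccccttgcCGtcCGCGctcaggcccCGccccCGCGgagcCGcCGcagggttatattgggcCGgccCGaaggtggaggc
FOXC1 (chr6:1609665-1609914) has 37 CpG and 76.8% GC, and FOXQ1 (chr6:1311848-1312097) has 29 CpG and 74.0% GC, against 21 CpG and 54.4% GC for FOXO4. TGTTTAC occurs in neither window on either strand. Over the whole 300-base windows FOXC1 had 40 CpG, FOXQ1 35 and FOXO4 25, against a median of 14 over all windows. The members with a single window that did not pass had 42 (FOXN3), 33 (FOXO1) and 27 (FOXP4). A part of CpG content in the changes was not tested.

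**Figure D3:**
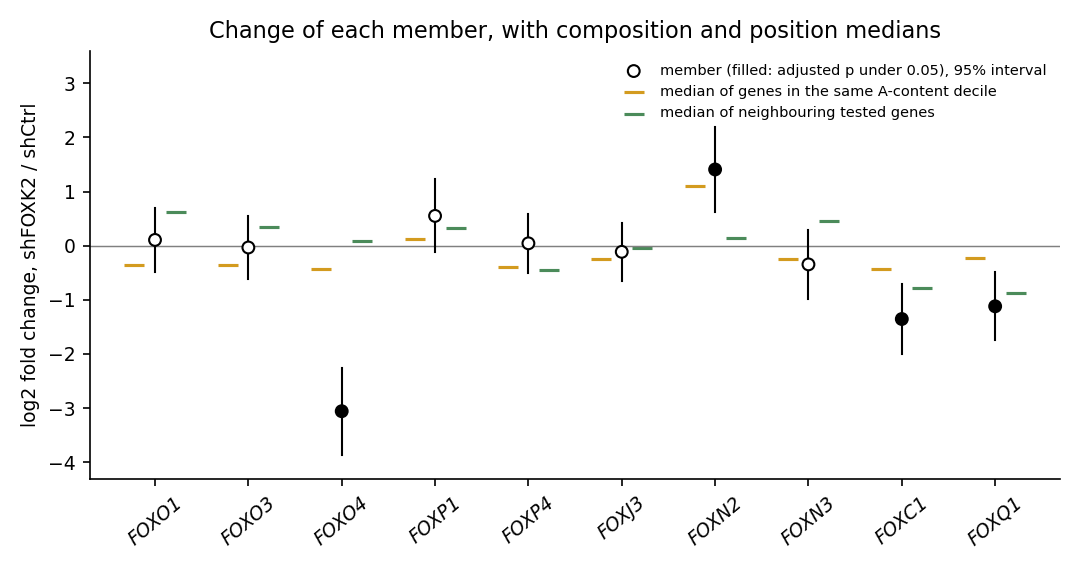
Fitted log2 fold change (shFOXK2 over shCtrl) of each member with its 95% interval; filled circles passed an adjusted p of 0.05. Yellow marks give the median of genes with similar A content and green marks the median of neighboring tested genes: FOXO4 (-3.06) is far from both of its medians (-0.43 and 0.09), FOXN2 (1.41) is close to its A-content median (1.11), and FOXC1 and FOXQ1 have neighbor medians of -0.78 and -0.88.

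On the per-length scale the order of the members in shCtrl was FOXJ3 (11.8 CPM per kb), FOXP4 (10.2), FOXO1 (7.79), FOXQ1 (7.05), FOXO3 (6.74), FOXP1 (5.88), FOXC1 (4.53), FOXN3 (4.07), FOXO4 (3.35) and FOXN2 (1.64). The ranges of the 2 libraries were apart between FOXJ3 and FOXP4, between FOXP4 and FOXO1 and between FOXO4 and FOXN2, and every other gene overlapped with the next in the order. In shFOXK2 the order ended differently: by means FOXN2 (4.38) stood above FOXQ1 (3.24), FOXN3 (3.20), FOXC1 (1.77) and FOXO4 (0.396), with FOXN3 overlapping both FOXN2 and FOXQ1. FOXJ3 (10.9), FOXP4 (10.6), FOXP1 (8.61), FOXO1 (8.39) and FOXO3 (6.59) were the first 5, each overlapping with the next, so that by means FOXP1 entered the first 5 and FOXQ1 left them. The sum over the 10 genes was 63.1 ± 5.22 CPM per kb in shCtrl and 58.1 ± 2.24 in shFOXK2 (SD, n = 2). The place of FOXP1 depends on the length used: over the union of its annotated exons it was at 1.29 CPM per kb in shCtrl, the lowest of the 10.

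**Figure D4:**
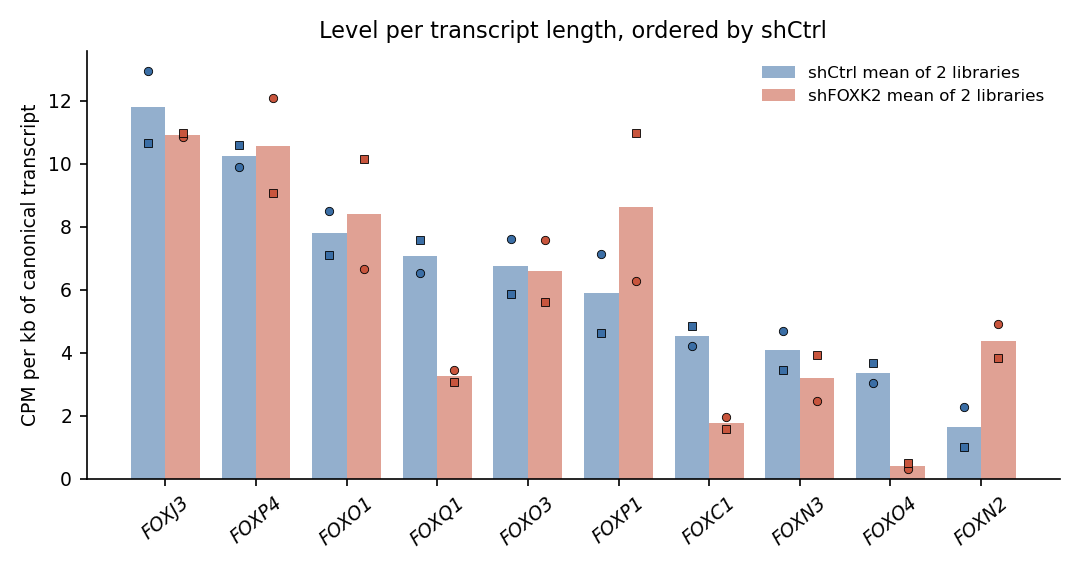
Level of each member in CPM per kb of canonical transcript, ordered by the shCtrl mean; bars are means of 2 libraries, circles replicate 1 and squares replicate 2. FOXJ3 and FOXP4 lead in both groups, and in shFOXK2 FOXO4 drops to the last place at 0.396.

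Of 37 other forkhead genes, 14 passed the expression filter, and 2 rose, 5 fell and 7 did not pass (median -0.72), so that 50% were called against 48.4% of all genes, and with the A-content offset 3 rose and 4 fell. FOXA2, an endoderm factor, rose (1.52, adjusted p = 0.00105) while its paralog FOXA1, a pioneer factor of epithelial tissues, fell (-1.47, adjusted p = 4.80e-04). FOXD4 rose (1.91, adjusted p = 0.00387) at levels of 0.685 to 4.15 CPM. Besides FOXO6 and FOXA1, FOXF1, a mesenchymal factor (-1.99, adjusted p = 7.40e-04), FOXD3 (-1.46, adjusted p = 0.0281, at most 1.12 CPM, adjusted p = 0.22 by DESeq2) and FOXJ2 (-0.93, adjusted p = 0.00945) fell. The cell cycle factor FOXM1 did not pass (0.39, adjusted p = 0.269), but it was called higher with the A-content offset (0.73, adjusted p = 0.0264) and with the GC offset (0.67, adjusted p = 0.0377). FOXA3 (-1.08) and FOXF2 did not pass either, but were called lower by the edgeR exact test (adjusted p = 0.0358 and 0.0366) and without the expression filter (adjusted p = 0.0221 and 0.0197). FOXD1 (0.11), FOXD2 (-0.52) and FOXL1 (-0.39) did not pass. Over all 26 tested forkhead genes, FOXK1 and FOXK2 included, 3 rose, 9 fell and the median was -0.37. Their called share, 46.2%, was near the 48.4% of all tested genes (25.7% higher and 22.7% lower). Of 4 tested companion transcripts, FOXD2-AS1 rose (1.98, adjusted p = 5.44e-04), and FOXO3B (-0.66), FOXN3-AS1 (-0.10) and FOXD3-AS1 (-1.03) did not pass.

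Regulators that set FOXO localization and stability were examined next. Of 31, all tested, 9 rose, 6 fell and 16 did not pass, a called share equal to that of all genes (48.4%), with a median of 0.05. With the GC offset the split turned, to 7 higher and 10 lower. Among those that fell were the FOXO kinase SGK1 (-1.89, adjusted p = 6.92e-05), which went from 197 and 196 to 61.5 and 44.3 CPM, the deacetylase SIRT2 (-1.39), the phosphoserine-binding protein gene YWHAG (-1.08), the lipid kinase subunit PIK3CB (-0.81) and the growth kinase MTOR (-0.75). Among those that rose were the related kinase SGK3 (2.80, adjusted p = 5.68e-05), which went from 2.51 and 1.62 to 12.3 and 16.8 CPM, RICTOR (1.71), a part of the kinase complex that acts on AKT and SGK proteins, SFN (1.68), a relative of YWHAG, and the stress kinase STK3 (1.62). The SGK3, RICTOR and STK3 transcripts, unlike that of SFN, lie in the highest of 10 equal groups by A content. The median log2 fold change of that group was itself 1.11. Across the 13 alternatives the lowest values were 1.91 for SGK3, 0.85 for RICTOR and 0.54 for STK3. Each still passed, but the size of these rises depended on the processing. With the GC offset MTOR (-0.42) no longer passed, nor did it with the A-content offset (-0.43). PIK3CB did not pass when scaled by library size only (-0.78, edgeR adjusted p = 0.0536). Without 1 library its values ran from -1.06 to -0.55, and those of MTOR from -0.91 to -0.65. AKT1 (-0.26) and AKT2 (-0.43) did not pass. SGK1 and SGK3 thus moved in opposite directions. The groups did not overlap for either, as was so for 75.4% of all tested genes.

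Genes known from other systems to be induced by FOXO factors were mostly lower. Of 31 such genes 29 were tested, and 19 fell, 3 rose and 7 did not pass, with a median log2 fold change of -1.71 against 0.04 over all genes and 75.9% called against 48.4%. The list was compiled with earlier results of these data known, and many of its genes have other regulators. PIK3IP1, an inhibitor of phosphoinositide kinase, fell from 9.64 and 10.2 to 0.281 and 0.549 CPM (-4.51, adjusted p = 7.37e-06). The mitochondrial superoxide dismutase SOD2 fell from 1127 and 896 to 39.5 and 51.1 CPM (-4.48, adjusted p = 3.65e-07). The autophagy gene GABARAPL1 (-4.39), the mitophagy kinase PINK1 (-3.70) and BBC3, which encodes the proapoptotic PUMA (-3.17), completed the 5 that fell most. Across these 5 genes no shFOXK2 library reached a control value. They were picked for their large falls, however, and the groups did not overlap for 75.4% of all tested genes.

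The 3 genes of that list that rose were KLF2 (2.44, adjusted p = 5.11e-05), a transcription factor, RICTOR, which is also among the regulators, and the stress response gene GADD45A (0.80, adjusted p = 0.0174). GADD45A no longer passed without the expression filter (0.70, edgeR adjusted p = 0.0611), and its values without 1 library ran from 0.70 to 0.85. Of 2 cyclins known to be repressed by FOXO factors, edgeR's quasi-likelihood test called 0, and 1 had an unadjusted p under 0.05. CCND1 was at 472 and 499 CPM in shCtrl and at 697 and 487 CPM in shFOXK2 (0.29, adjusted p = 0.361), and was called higher with the offset for GC (0.58, adjusted p = 0.0389) or A content (0.62, adjusted p = 0.0291). CCND2 stayed under 1 CPM (-1.496, unadjusted p = 0.038, adjusted p = 0.0726), and was called lower by edgeR's exact test (adjusted p = 0.0376) and without shFOXK2 replicate 2 (-3.23, adjusted p = 0.0185).

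**Figure D5:**
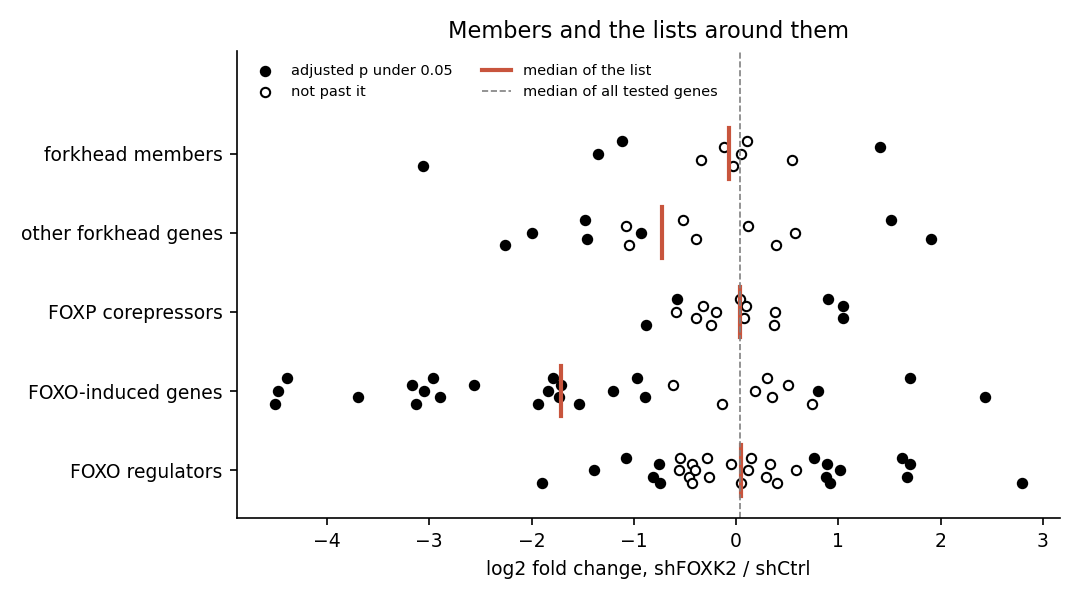
Log2 fold change (shFOXK2 over shCtrl) of each tested gene, by list; filled circles passed an adjusted p of 0.05, red lines are list medians and the dashed line is the median of all tested genes (0.04). The members (-0.07), the FOXO regulators (0.05) and the FOXP corepressors (0.03) center near 0, the other forkhead genes at -0.72 and the FOXO-induced genes at -1.71.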

How the data were processed

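Single-end reads of 50 bases from poly(A) libraries were aligned by the authors with STAR 2.5.2 to hg38 and counted with HTSeq, and the deposited values are raw counts per gene symbol for each of the 4 libraries. The strand setting and annotation release are not given in the sources used here. Counts of genes kept by edgeR's filterByExpr (16417) were fitted with edgeR 4.0.16 (R 4.3.3): TMM factors, group as the only term, and the quasi-likelihood F test with Benjamini-Hochberg adjustment. Standard errors were the log2 fold change over the square root of F, and fold changes are shFOXK2 over shCtrl. Levels are CPM on TMM-scaled library sizes, divided by the GENCODE 44 canonical transcript length where genes are compared. Identifiers matched by symbol for 37235 of 56655 symbols. Replicates of a group differed by more than counting noise (chi-square per gene 38.1 and 27.9), so none was a duplicate. The fit was tested on simulated data that held far fewer changed genes and no trend with composition, so its error here was not measured. Intervals and the limit of 3 counts cover the spread of these libraries and counting error only.

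The members and lists were chosen with earlier results of these data known, and the lists came from general knowledge. Genes named were the 10 members, FOXK1 and FOXK2, every tested forkhead gene and companion transcript, the cyclins, and up to 5 genes per direction with the largest called change among the FOXO regulators, FOXO-induced genes and FOXP corepressors. AKT1, AKT2, DUSP22, EXOC2 and GMDS were named after their values were seen. So were the cell type markers CDH1, PAX8, WT1, MUC16, MUC1, CLDN4, CALB2, PDGFRB, PECAM1, CDH5, CD14 and UPK3B. Alternatives were DESeq2 1.42.0, the edgeR exact test, other scalings and filters, offsets for GC, A content and length (lowess span 0.2), a minimum log2 fold change of 1 (glmTreat), a replicate block and leaving out each library. Protein identity between the forkhead domains and the FOXN2 promoter were not analysed here, and a few listed genes are counted but not reported by name here.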

Additional observations from a re-analysis of the deposited data

How the results depend on the processing

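FOXO4 was called lower in all 13 alternatives (-3.16 to -2.70), and its values without 1 library ran from -3.47 to -2.79. FOXC1, FOXQ1 and FOXN2 lost their calls when a change of over 1 log2 unit was required (adjusted p = 0.155, 0.423 and 0.172), and FOXN2 also with the GC offset, alone or with the block. FOXP1 passed with the length offset (0.68, adjusted p = 0.0386). Members called numbered 3 with the GC offset, 5 with the length offset and 4 to 5 without 1 library. A minimum change of 1 log2 unit gave 3386 called genes, 1 member, 3 other forkhead genes, 5 FOXO regulators and 0 FOXP corepressors. Companion transcripts called numbered 3 with no filter, 2 with the replicate block, 2 with the length offset and 1 to 2 without 1 library. Of the cyclins, 1 (CCND2, lower) passed by the exact test, 1 (CCND1, higher) after correction for A content or for GC, blocked or not, and 0 to 1 without 1 library. The union of exons, chosen after seeing the data, moved the summed FOXO level from 57.8% to 65.2% of the control. The shorter motif TGTTTA was in 4 member windows, against 12.3% of all windows. In fits without 1 library, the called genes numbered 6704 to 7473, other forkhead genes 5 to 9, FOXO regulators 12 to 15, FOXO-induced genes 21 to 22 and FOXP corepressors 1 to 4. The lone remaining library was assumed to vary like the other group.

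Changes of sign were found among genes that had not passed. FOXO3 was 0.0131 with at least 10 counts in every library, 0.21 after GC correction, 0.22 when that was blocked by replicate, 0.28 after A-content correction and 0.0742 with the length offset. FOXP4 was -0.0327 with DESeq2 and -0.0579 with no filter, FOXJ3 was 0.12 with the A-content and 0.0228 with the length offset, and FOXP2 was -0.21 with the A-content offset. FOXN3-AS1 was 0.28, 0.18 and 0.29 after GC correction, the same when blocked, and A-content correction. Without 1 library, values ran from -0.27 to 0.38 for FOXO1, -0.27 to 0.13 for FOXO3, -0.18 to 0.20 for FOXP4, -0.49 to 0.50 for FOXD1, -0.0519 to 0.68 for FOXM1, -0.15 to 1.34 for FOXP2 and -0.85 to 0.39 for FOXN3-AS1. The A-content, GC and no-filter settings moved the median of all genes by 0.18, 0.14 and -0.10. The cause of these differences was not tested.

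Deviations of same-numbered libraries from their group means were not positively correlated (-0.113), which does not show whether such libraries were handled together. With the replicate block 7270 genes and 4 members were called. With the numbers crossed, an alternative chosen after seeing the data, 8350 genes and 4 members were called. FOXD3 lost its call with the block (adjusted p = 0.0512). Depth limits FOXO4 most among the members, at 16 and 32 counts in shFOXK2.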
